A study of Mus musculus with 6 samples.

Results

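STAT transcription factors were examined at the mRNA level in mouse natural killer (NK) cells that lack Rroid, a long noncoding RNA which marks a regulatory element near the gene Id2. The members were the rows of the deposited count tables that carry the symbols Stat2, Stat3, Stat4, Stat5a, Stat5b and Stat6, 6 genes of 37991 in all. Every one of the 6 passed the filter on low counts. Their levels are of mRNA and say nothing of phosphorylation or activity.

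RNA sequencing had been done on CD27+ CD11b+ NK cells from spleen, in 3 Rroid-deficient libraries and 3 wildtype libraries, all on the C57BL6 background. CD27 and CD11b are surface proteins whose joint presence marks an intermediate stage of NK cell maturation. No treatment was labelled, and the sources used here do not give the age of the mice, the way Rroid was removed or any pooling of animals. Whether each library came from its own mouse is not labelled, and p-values therefore reflect only the scatter among these 6 samples, part of which may be technical.

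STAT proteins wait in the cytoplasm until a cytokine receptor is engaged. Janus kinases (JAKs) bound to the receptor then phosphorylate a STAT tyrosine, and the paired STATs enter the nucleus and switch on target genes. In NK cells STAT5A and STAT5B carry the survival and growth signal of IL-15, STAT4 carries the IL-12 signal that drives interferon gamma, STAT2 serves type I interferon receptors, STAT3 serves receptors of the IL-6, IL-10 and IL-21 kind, and STAT6 serves IL-4 and IL-13.

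Reads assigned to genes ranged from 5823626 to 9216430 per library. Values below are counts scaled to a common library size (CPM) after TMM correction. Before that correction 3 counts, the limit that a count of 0 allows, were worth 0.326 to 0.515 CPM. Id2, the gene next to the Rroid element, checked the labels. It had 38.9, 66.7 and 81.2 CPM in the deficient libraries, against 467.5, 338.0 and 341.5 CPM in the wildtype libraries (log2 fold change -2.62, SE 0.30, adjusted p = 0.0308 in edgeR). Over 16 alternative fits its adjusted p ran from 2.99e-17 to 0.316, always with a negative fold change. The Rroid transcript itself was not analysed here. All 10 NK cell markers were detected, with a summed level of 8188 to 8270 CPM in deficient libraries and 10181 to 12273 CPM in wildtype libraries. Gzma differed most within that sum, with means of 2560 CPM in deficient and 4501 CPM in wildtype libraries. Tbx21 (180 against 130 CPM) and Cd27 (304 against 270 CPM) had higher means in deficient libraries, and the remaining markers lower ones. The 10 T cell markers summed to 91.7 to 147 CPM in deficient libraries and 17.2 to 24.7 CPM in wildtype libraries, with Cd6 and Cd8a at 0 throughout and Cd3e at 0 in all but 1 library. Cd3d and Cd3g gave most of that sum except in wildtype library 1, where Cd4 (57 reads, 8.54 CPM) and Cd8b1 (37 reads, 5.54 CPM), at 0 in the other 5 libraries, gave more. The 10 myeloid markers summed to 401 to 469 CPM in deficient libraries and 421 to 505 CPM in wildtype libraries, most of it Itgax, with Cd14, Fcgr1 and S100a8 at 0. Cd68, another myeloid marker, had 30.4, 21.0 and 19.6 CPM in deficient libraries 1 to 3, against 2.25, 11.3 and 1.10 CPM in wildtype libraries 1 to 3, higher in every deficient library (log2 fold change 2.27, SE 0.90, adjusted p = 0.914 in edgeR). The single marker genes given here were picked after their values were seen. The 7 erythroid markers summed to 1.47 to 7.19 CPM in deficient libraries and 10.2 to 19.8 CPM in wildtype libraries. Deficient library 1 and wildtype library 1 had the most tested genes without a read, 5.57% and 5.63%, against 0.23% to 2.43% in the other 4 libraries.

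The comparison of genotypes asked whether loss of Rroid, with its fall of Id2, went with a change in STAT mRNA. None of the 6 STAT genes passed edgeR's quasi-likelihood test at an adjusted p of 0.05, and none had an unadjusted p below 0.05. Over all 11724 genes tested, 2 passed, 0.0171%, 1 in each direction (0.00853% each). DESeq2 on the same genes called none of the 6 either, where it called 64 genes, 0.549% of those with an adjusted p. Nor did a member pass with limma-voom (0.00853% of all genes called), with a stricter filter of 10 counts in 3 libraries and a mean of 2 CPM (0.0177%), or among genes at a mean of 20 CPM or more (0.0163%). The log2 fold change was negative for 3 members and positive for 3, with a median of -0.01 beside 0.02 over all tested genes. Stat6 was the 1 member whose deficient values were all under its wildtype values. Genotypes did not overlap in 12.4% of all tested genes, and 6.33% lay lower in every deficient library, beside 1 of the 6 members. In bulk RNA, fewer cells of a type and less RNA per cell cannot be told apart.

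**Figure D1:**
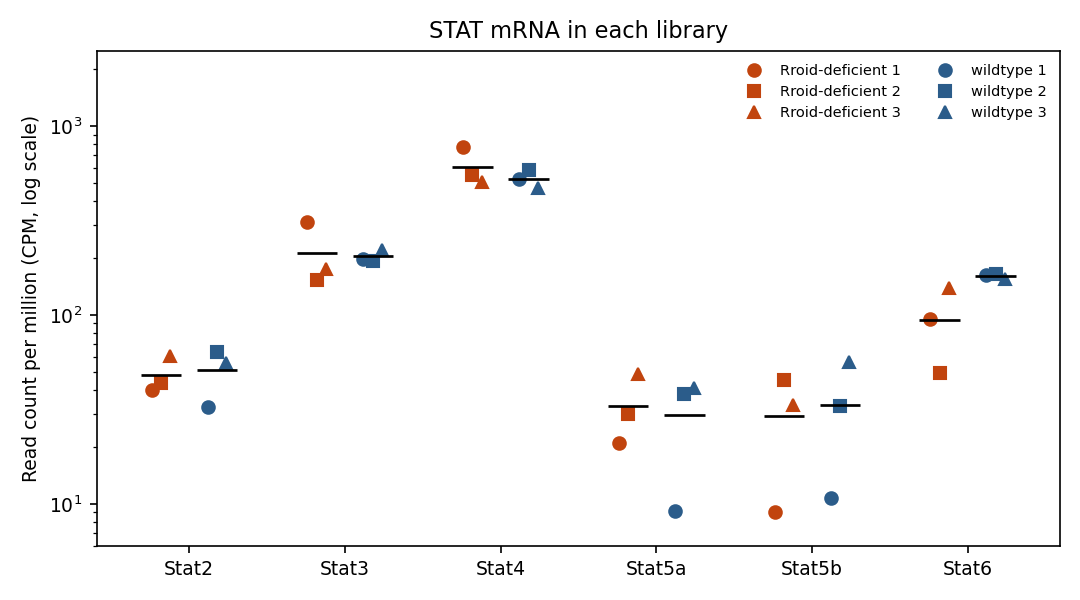
CPM of the 6 STAT genes on a log axis, with a point per library (circle, square and triangle for libraries 1, 2 and 3), Rroid-deficient left of wildtype in each pair, and a line at each mean (n = 3). Stat6 is the member whose genotypes do not overlap, and Stat5a and Stat5b are lowest in the libraries numbered 1 of both genotypes.

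Stat4 was the most abundant STAT mRNA in every library. It encodes the STAT of IL-12 signalling, which NK cells need to make interferon gamma in response to that cytokine. The gene (ENSMUSG00000062939, chromosome 1) had 774, 549 and 503 CPM in deficient libraries 1 to 3, against 521, 581 and 467 CPM in wildtype libraries 1 to 3. Deficient library 1 was the highest of the 6, and the other 5 libraries were mixed. The means were 609 ± 145 CPM in deficient and 523 ± 57.0 CPM in wildtype libraries (SD, n = 3 each), a log2 fold change of 0.22 (SE 0.20, 95% interval -0.23 to 0.66, edgeR adjusted p = 0.936). That interval covers levels from 0.855 to 1.58 times wildtype and is the narrowest of the 6. Without deficient library 1 and wildtype library 1, which had the most genes at 0, the log2 fold change of Stat4 was -0.0017.

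Stat3, which encodes the STAT of IL-6, IL-10 and IL-21 receptors, was also highest in deficient library 1. The gene (ENSMUSG00000004040, chromosome 11) had 311, 153 and 174 CPM in deficient libraries 1 to 3, against 198, 193 and 221 CPM in wildtype libraries 1 to 3. Deficient library 1 was above every wildtype library and deficient libraries 2 and 3 were below every wildtype library. The means were 213 ± 86.1 CPM in deficient and 204 ± 15.1 CPM in wildtype libraries (SD, n = 3 each), with a log2 fold change of 0.06 (SE 0.28, 95% interval -0.56 to 0.68, edgeR adjusted p = 0.987). The sign of this value did not hold. Without deficient library 1 it was -0.33 (edgeR adjusted p = 0.984). With all libraries kept, it was -0.18 with limma-voom and sample quality weights, and -0.0151 in an edgeR fit that blocked on library number.

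Stat6 differed most between the genotypes. It encodes the STAT of IL-4 and IL-13 signalling. The gene (ENSMUSG00000002147, chromosome 10) had 94.99, 49.3 and 139 CPM in deficient libraries 1 to 3, against 163, 164 and 154 CPM in wildtype libraries 1 to 3. All deficient libraries were lower, and they spread over a 2.81-fold range where the wildtype libraries spread over a 1.07-fold range. Raw counts were 659, 302 and 1002 in deficient libraries and 1089, 1531 and 980 in wildtype libraries. The coefficient of variation was 47.4% in deficient libraries, 11.1 times the 4.27% that counting error alone gives, and 3.48% in wildtype libraries, 1.19 times counting error. The means were 94.3 ± 44.6 CPM in deficient and 161 ± 5.58 CPM in wildtype libraries (SD, n = 3 each). On the log2 scale this was a fold change of -0.77 (SE 0.35, 95% interval -1.54 to 0.005, edgeR adjusted p = 0.914, unadjusted p = 0.0511). DESeq2 gave -0.76 (SE 0.36), with an unadjusted p of 0.0337 and an adjusted p of 0.568. Of all tested genes, 5.46% had a smaller unadjusted p than Stat6 in edgeR.

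The size of the Stat6 difference moved with deficient library 2. Without it the log2 fold change was -0.46 (edgeR adjusted p = 0.900), and without deficient library 3 it was -1.16 (edgeR adjusted p = 0.591). It stayed negative in all 15 alternative fits, with adjusted p from edgeR, limma or DESeq2 between 0.445 and 0.999. The summed NK cell and erythroid markers were also lower in every deficient library, and the summed T cell markers were higher in every deficient library. Cd68 was higher in every deficient library as well. The summed myeloid markers overlapped between genotypes, but most of that sum was Itgax, which overlapped too. Itgax and Csf1r, 2 other myeloid markers, had lower means in deficient libraries, though Csf1r had at most 26 reads in a library. Lyz2 had a higher mean in deficient libraries (2.54 against 0.629 CPM), all of it from deficient library 3. Adgre1, Csf3r and S100a9 had only 1 read each, in a wildtype library. The part of these genes in the Stat6 values was not tested.

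Stat2, the partner of IRF9 in the interferon-activated complex, did not separate the genotypes. The gene (ENSMUSG00000040033, chromosome 10) had 40.1, 43.7 and 60.3 CPM in deficient libraries 1 to 3, against 32.5, 63.9 and 55.8 CPM in wildtype libraries 1 to 3. Every deficient value fell inside the wildtype range. The means were 48.0 ± 10.8 CPM in deficient and 50.7 ± 16.3 CPM in wildtype libraries (SD, n = 3 each), with a log2 fold change of -0.08 (SE 0.40, 95% interval -0.97 to 0.81, edgeR adjusted p = 0.987). Changes to 0.512 or 1.75 times wildtype lie within that interval.

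Stat5a and Stat5b encode closely related proteins that act downstream of the IL-2 and IL-15 receptors, and they are neighbours on chromosome 11. Their sequences matter here because a read that fits both genes cannot be assigned to either by its sequence. The longest coding sequences in GENCODE M21 (build GRCm38) were 84.6% identical over 2458 aligned columns, where the other 14 pairs of members were 41.8% to 56.6% identical. A run of 324 coding bases was the same letter for letter, against at most 23 in any other pair. Of 2292 windows of the 100-base read length in Stat5a, 265, or 11.6%, occurred unchanged in Stat5b, and 40.9% differed at no more than 2 bases when aligned without gaps. No other pair shared a window of that length.
The 2 lines that follow show coding bases 845 to 944 of each gene, at the end of the identical run, 5′ to 3′ on the coding strand, with the single base that differs in capitals.
Stat5a: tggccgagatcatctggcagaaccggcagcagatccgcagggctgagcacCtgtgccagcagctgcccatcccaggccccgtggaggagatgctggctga
Stat5b: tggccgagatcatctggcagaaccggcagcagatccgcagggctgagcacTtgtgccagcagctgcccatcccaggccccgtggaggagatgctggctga
The next 2 lines show coding bases 65 to 164, the ungapped window of this length with the most differences, 28, again in capitals.
Stat5a: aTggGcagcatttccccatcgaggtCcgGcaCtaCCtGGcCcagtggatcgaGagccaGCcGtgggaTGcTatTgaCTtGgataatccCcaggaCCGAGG
Stat5b: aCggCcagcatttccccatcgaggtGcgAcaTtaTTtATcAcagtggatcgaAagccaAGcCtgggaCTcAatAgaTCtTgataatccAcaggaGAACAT
A read from the first window can be told apart by 1 base, and a read from the second by 28. Reads listed as aligned to more than 1 place stood in a row that names no gene and were in neither gene's count. The 3′ ends of Stat5a and Stat3, on opposite strands, overlap by 72 bases in the same annotation, and reads there are uncertain too because the amplification kit does not mark strand.

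Stat5a (ENSMUSG00000004043) had 20.9, 29.9 and 48.4 CPM in deficient libraries 1 to 3, against 9.14, 37.9 and 41.2 CPM in wildtype libraries 1 to 3. The genotypes overlapped, and library 1 was the lowest of each. The means were 33.1 ± 14.0 CPM in deficient and 29.4 ± 17.6 CPM in wildtype libraries (SD, n = 3 each), with a log2 fold change of 0.17 (SE 0.62, 95% interval -1.21 to 1.54, edgeR adjusted p = 0.981). Stat5b (ENSMUSG00000020919) had 9.08, 45.2 and 33.3 CPM in deficient libraries 1 to 3, against 10.8, 32.8 and 56.5 CPM in wildtype libraries 1 to 3. It was likewise lowest in the libraries numbered 1, from 63 reads in deficient library 1 and 72 reads in wildtype library 1. The means were 29.2 ± 18.4 CPM in deficient and 33.3 ± 22.8 CPM in wildtype libraries (SD, n = 3 each), with a log2 fold change of -0.19 (SE 0.71, 95% interval -1.78 to 1.39, edgeR adjusted p = 0.981). Intervals this wide leave levels from 0.434 to 2.91 times wildtype for Stat5a and from 0.292 to 2.63 times for Stat5b.

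Adding the reads of both genes removes their division from the comparison. Summed Stat5 was 30.0, 75.0 and 81.7 CPM in deficient libraries 1 to 3, against 19.9, 70.7 and 97.7 CPM in wildtype libraries 1 to 3. The libraries numbered 1 were again lowest in each genotype. The fit on summed counts gave a log2 fold change of -0.01 (SE 0.57, 95% interval -1.28 to 1.25, edgeR adjusted p = 0.999). The share of Stat5b among these reads was 30.3%, 60.2% and 40.8% in deficient libraries 1 to 3, against 54.1%, 46.4% and 57.8% in wildtype libraries 1 to 3. The deficient libraries held both the lowest and the highest share. The mean share was 43.8% ± 15.2 in deficient and 52.8% ± 5.85 in wildtype libraries (SD, n = 3 each), a difference of -9.00 percentage points (two-sided exact permutation test, p = 0.5, where 3 against 3 allows no p below 0.1). The difference was -2.27 points without deficient library 1 and -17.2 points without deficient library 2. Wilson 95% intervals, which cover counting error only, ran from 24.4% to 36.8% in deficient library 1 and from 55.7% to 64.6% in deficient library 2, so these libraries of 1 genotype differed by more than counting error.

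**Figure D2:**
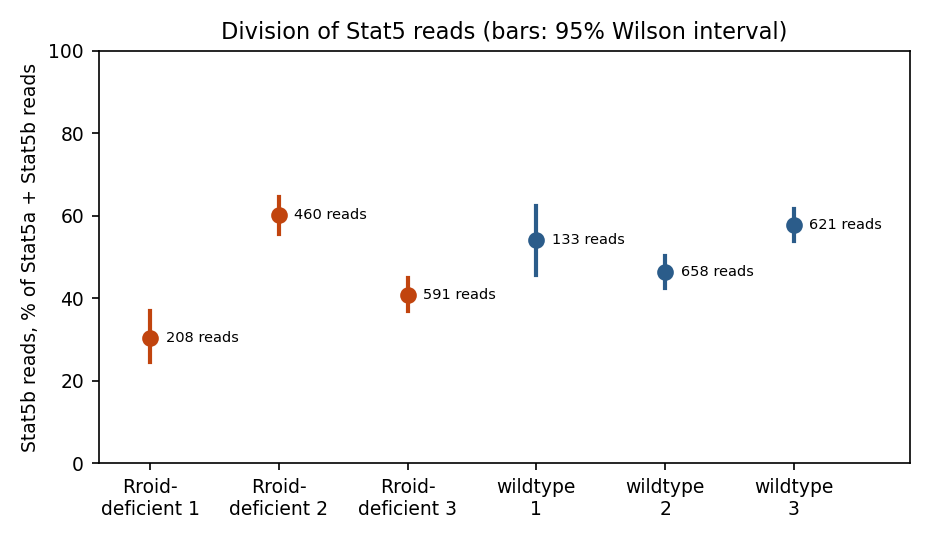
Reads assigned to Stat5b as a percentage of reads assigned to Stat5a or Stat5b, per library, with 95% Wilson intervals as bars and the number of reads beside each point. The 3 deficient libraries spread from 30.3% to 60.2%, around the wildtype range of 46.4% to 57.8%.

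Precision differed across the family. The SE on the log2 scale was 0.20 for Stat4, 0.28 for Stat3, 0.35 for Stat6, 0.40 for Stat2, 0.62 for Stat5a and 0.71 for Stat5b. The coefficient of variation pooled within genotype was 66.4% for Stat5b, above that of 82.9% of genes within a factor of 2 of its level. For Stat2 it was 28.0%, above that of 30.3% of genes at a like level. In deficient libraries the spread of each member was at least 3.98 times counting error.

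**Figure D3:**
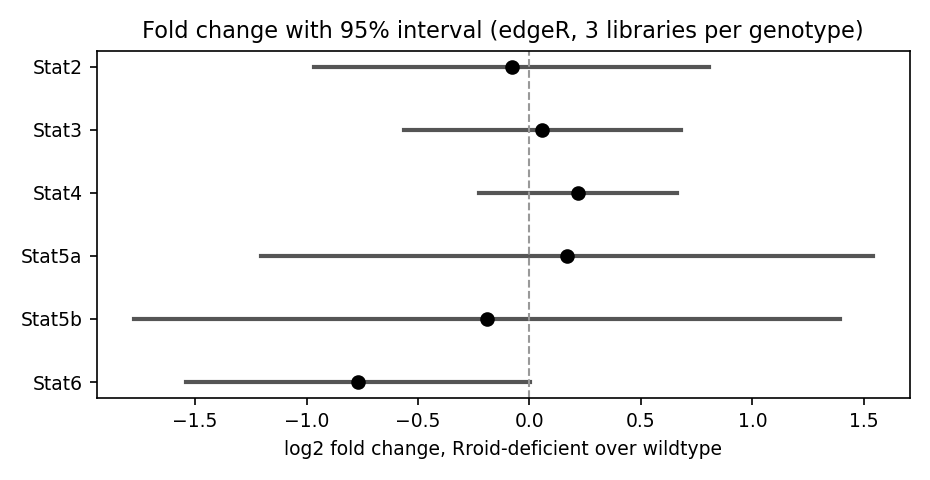
Log2 fold change of each STAT gene, Rroid-deficient over wildtype (points), with the 95% interval from the edgeR fit (bars) and a dashed line at no change. Every interval includes 0. That of Stat6 reaches 0.005 at its upper end, and those of Stat5a and Stat5b are the widest.

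Levels were compared between the genes per kb of exon, using GENCODE M21 lengths. In deficient libraries Stat4 had 157 ± 37.5 CPM per kb, Stat3 22.3 ± 9.04, Stat6 21.4 ± 10.1, Stat2 8.10 ± 1.82, Stat5b 5.27 ± 3.32 and Stat5a 4.63 ± 1.97 CPM per kb (SD, n = 3). In wildtype libraries Stat4 had 135 ± 14.7 CPM per kb, Stat6 36.5 ± 1.27, Stat3 21.4 ± 1.58, Stat2 8.56 ± 2.75, Stat5b 6.02 ± 4.13 and Stat5a 4.12 ± 2.47 CPM per kb (SD, n = 3). Stat6 stood above Stat3 in all 3 wildtype libraries, 1.70-fold in the means and without overlap. In deficient libraries the ranges of Stat3 and Stat6 overlapped, and Stat3 was above Stat6 in 2 of 3. Stat4 did not overlap with the next member in either genotype, being 7.04-fold above Stat3 in deficient and 3.71-fold above Stat6 in wildtype libraries. The 3 least abundant, Stat2, Stat5b and Stat5a, overlapped among themselves in both genotypes, and Stat2 did not overlap with the member above it. These levels are descriptions, with no test. With the length of the longest transcript in place of merged exons, Stat3 had 35.2 CPM per kb in deficient and 33.8 CPM per kb in wildtype libraries. Stat5a then had 8.35 CPM per kb in deficient and 7.43 CPM per kb in wildtype libraries, above Stat5b at 5.60 CPM per kb in deficient and 6.39 CPM per kb in wildtype libraries.

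**Figure D4:**
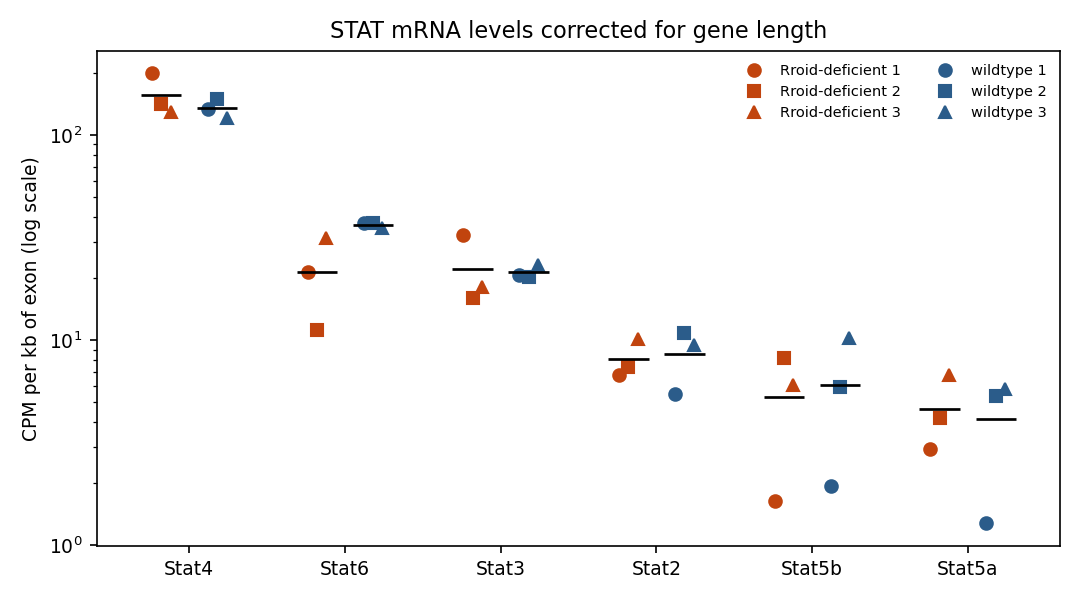
CPM per kb of merged exons on a log axis, by library and genotype, with genes in descending order of the mean over 6 libraries and a line at each genotype mean (n = 3). Stat4 lies between 121 and 200 CPM per kb, above every value of the other 5 genes.

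Stat4 made up 75.3%, 75.1% and 64.1% of the per-kb level summed over the 6 genes in deficient libraries 1 to 3, against 66.9%, 65.3% and 59.1% in wildtype libraries 1 to 3. The genotypes overlapped in this share. Stat6 made up 5.93% to 15.5% in deficient libraries and 16.3% to 18.4% in wildtype libraries, without overlap. Deficient library 3 had the highest share of that genotype. Stat5a and Stat5b each stayed at or under 4.99% in every library.

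Other genes whose pattern over the 6 libraries was most like that of each member were found by the root mean square difference of centred log2 CPM, among 5678 protein-coding genes at a mean of 20 CPM or more. For Stat4 they were Klra3 and Brd2 (differences of 0.07 each, against a median of 0.49 over these genes). For Stat3 they were Abr and Cdk5rap2 (0.07 each, median 0.54), and for Stat2 As3mt and Iqgap2 (0.05 each, median 0.58). For Stat6 they were Ssbp3 (0.13) and Iars2 (0.13), against a median of 0.78. Ssbp3 had 30.4, 15.99 and 35.7 CPM in deficient libraries 1 to 3, against 51.4, 44.9 and 44.7 CPM in wildtype libraries 1 to 3. Its order of genotypes was that of Stat6, which follows from the choice by likeness over these same libraries. For Stat5a they were Eny2 (0.21) and Ddx23 (0.22), with a median of 0.92. For Stat5b they were Ccdc186 (0.22) and Aar2 (0.31), with a median of 1.10. Ccdc186 had its lowest values in the libraries numbered 1, 17.7 CPM in deficient and 17.7 CPM in wildtype, which likewise follows from the choice.

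Genes around the STATs were compared in 9 lists of kinases, receptors, inhibitors, partners and targets, 93 distinct genes of which 84 were tested. None passed edgeR over all genes tested, beside the 0.0171% called among all genes. An unadjusted p below 0.05 was found for 12 of the 84, beside 5.29% of all tested genes. All deficient libraries lay above all wildtype libraries in 12 of them, beside 6.03% of all tested genes, and below in 5, beside 6.33%. The lists were chosen with earlier results of these data known, so these counts are no test of the lists. Several lists share genes, and Socs3, Cish, Il21r and others count in more than 1.

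**Figure D5:**
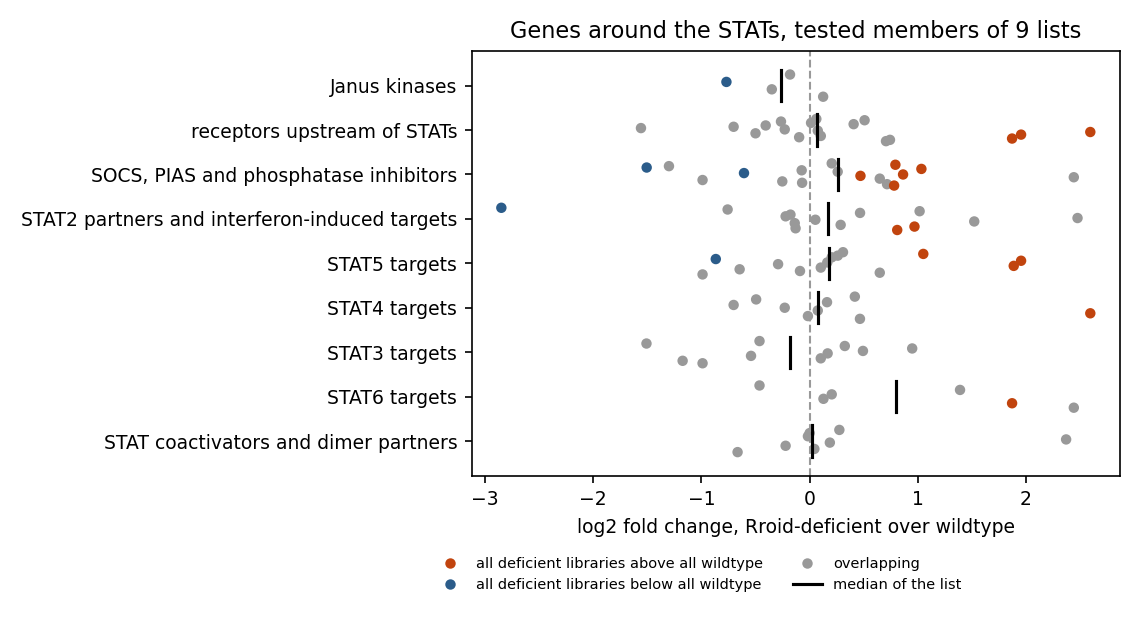
Log2 fold change, Rroid-deficient over wildtype, of each tested member of the 9 lists (points) with the median of each list (black line). Red points are genes with all deficient libraries above all wildtype libraries, blue points those with all below, and grey points overlap. List medians lie between -0.26 and 0.80 and no member passed the test.

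Janus kinases had 4 tested members, of which 0 passed. The values of 3 were below 0 and that of 1 above it, with a median log2 fold change of -0.26. That median was -0.53 without deficient library 3 and -0.10 without wildtype library 1. Jak1, which pairs with nearly all of these receptors, had 2078, 1725 and 1792 CPM in deficient libraries 1 to 3, against 2248, 2285 and 1807 CPM in wildtype libraries 1 to 3 (log2 fold change -0.18, SE 0.14, adjusted p = 0.925 in edgeR). Jak2, which serves the IL-12 receptor among others, had 72.4, 71.6 and 92.4 CPM in deficient libraries 1 to 3, against 170, 114 and 119 CPM in wildtype libraries 1 to 3. Every deficient value of Jak2 was below every wildtype value, at a log2 fold change of -0.77 (SE 0.28, adjusted p = 0.906 in edgeR). Jak3, the kinase of the common gamma chain, averaged 28.5 ± 17.5 CPM in deficient and 36.3 ± 15.96 CPM in wildtype libraries, and Tyk2, of the interferon and IL-12 receptors, 124 ± 18.6 CPM in deficient and 114 ± 24.5 CPM in wildtype libraries (SD, n = 3 each).

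Receptors upstream of the STATs had 18 tested members of 20, and 0 passed in edgeR. Their log2 fold changes were above 0 in 11 and below 0 in 7, with a median of 0.07, which ran from -0.10 without deficient library 1 to 0.17 without deficient library 3. The list also holds Il18r1 and Il18rap, chains of the IL-18 receptor, which signals through MyD88 and not through a STAT, and both overlapped between genotypes. Ifngr2 and Il6ra had no reads in any library. Il4ra, the receptor chain that recruits STAT6, had 81.3, 56.0 and 83.5 CPM in deficient libraries 1 to 3, against 14.8, 29.0 and 16.4 CPM in wildtype libraries 1 to 3. All deficient libraries were higher, at a log2 fold change of 1.87 (SE 0.43, adjusted p = 0.572 in edgeR). Il21r, a receptor that signals mainly through STAT3, had 24.6, 32.6 and 28.6 CPM in deficient libraries and 3.595, 3.22 and 7.39 CPM in wildtype libraries, at a log2 fold change of 2.60 (SE 0.65, adjusted p = 0.647 in edgeR). DESeq2 called both, with adjusted p of 0.00803 for Il4ra and 0.0161 for Il21r, and edgeR without a filter called Il4ra (adjusted p = 0.0329), in fits that called 0.549% and 0.495% of all genes. Over all alternative fits the adjusted p ran from 0.00803 to 0.999 for Il4ra and from 0.0161 to 0.999 for Il21r, always with a positive log2 fold change. Il12rb2, the signalling chain of the IL-12 receptor that binds STAT4, had 180, 371 and 213 CPM in deficient libraries 1 to 3, against 419, 457 and 367 CPM in wildtype libraries 1 to 3 (log2 fold change -0.70, SE 0.27, adjusted p = 0.914 in edgeR). Its genotypes overlapped through deficient library 2.

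Il2rb, Il2rg, Il12rb1, Il6st, Ifnar1 and Ifnar2 overlapped between genotypes. Il2rb, the IL-15 receptor chain that recruits STAT5, averaged 2915 ± 299 CPM in deficient and 2712 ± 484 CPM in wildtype libraries, and Il2rg, the common gamma chain, 292 ± 45.7 CPM in deficient and 312 ± 59.2 CPM in wildtype libraries. Il12rb1 averaged 26.5 ± 23.9 CPM in deficient and 35.1 ± 31.8 CPM in wildtype libraries. Il6st, which encodes gp130, averaged 40.7 ± 50.1 CPM in deficient and 24.3 ± 8.52 CPM in wildtype libraries. The type I interferon receptor chains Ifnar1 and Ifnar2 averaged 144 ± 81.0 CPM (Ifnar1) and 110 ± 27.0 CPM (Ifnar2) in deficient libraries, against 138 ± 11.4 CPM (Ifnar1) and 77.5 ± 38.1 CPM (Ifnar2) in wildtype libraries (SD, n = 3 each).

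Inhibitors of JAK-STAT signalling, 17 SOCS, PIAS and phosphatase genes, had 0 members that passed in edgeR, 10 above 0 and 7 below 0 on the log2 scale, and a median of 0.26. The median was 0.12 without wildtype library 2, 0.51 without wildtype library 3 and 0.44 without deficient library 1, and 0.47 with limma-voom. Ptprc, the CD45 phosphatase, had 4922, 4703 and 4658 CPM in deficient libraries and 2978, 3664 and 3664 CPM in wildtype libraries, higher in every deficient library (log2 fold change 0.47, SE 0.12, adjusted p = 0.645 in edgeR). With limma-voom and sample quality weights, which called 0.0682% of tested genes, Ptprc passed (adjusted p = 0.0438), and its adjusted p ran from 0.0438 to 0.999 over the alternative fits. Pias3, which encodes an inhibitor of STAT3 binding to DNA, had 9.95, 7.83 and 12.3 CPM in deficient libraries 1 to 3, against 35.7, 28.0 and 21.9 CPM in wildtype libraries 1 to 3. All deficient values were lower, at a log2 fold change of -1.51 (SE 0.56, adjusted p = 0.906 in edgeR). The feedback inhibitors that STATs induce were scarce and variable. Cish averaged 4.86 ± 2.84 CPM in deficient and 4.23 ± 5.07 CPM in wildtype libraries, and Socs1 averaged 6.47 ± 5.73 CPM in deficient and 1.19 ± 1.11 CPM in wildtype libraries. Socs2 averaged 8.36 ± 3.87 CPM in deficient and 5.32 ± 3.76 CPM in wildtype libraries, and Socs3 9.33 ± 5.81 CPM in deficient and 18.6 ± 13.8 CPM in wildtype libraries (SD, n = 3 each). All 4 overlapped between genotypes.

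No target gene of any STAT passed in edgeR with the filter on low counts. DESeq2 called Il21r (listed under STAT4) and Il4ra (listed under STAT6), and edgeR without a filter called Il4ra. Among 14 tested STAT5 targets the median log2 fold change was 0.18, with 9 above 0 and 5 below. It was 0.0089 without wildtype library 2 and 0.04 without deficient library 2. Gzmb, the granzyme B gene, had 116, 277 and 233 CPM in deficient libraries 1 to 3, against 338, 405 and 400 CPM in wildtype libraries 1 to 3 (log2 fold change -0.87, SE 0.29, adjusted p = 0.895 in edgeR). Osm, the cytokine oncostatin M, had 17.2, 16.6 and 26.6 CPM in deficient libraries and 7.49, 5.48 and 3.30 CPM in wildtype libraries (log2 fold change 1.89, SE 0.70, adjusted p = 0.906 in edgeR). These members lay apart between genotypes in opposite directions. Among 9 tested STAT4 targets the median was 0.08 (-0.07 without deficient library 3, 0.23 without wildtype library 1), with Il21r and Il12rb2 of smallest p, described above. Among 10 tested STAT3 targets the median was -0.18, but it was 0.22 without wildtype library 1, -0.78 without wildtype library 3, 0.12 with limma-voom and 0.28 with quality weights. Bcl3 averaged 17.4 ± 6.65 CPM in deficient and 49.6 ± 53.0 CPM in wildtype libraries (SD, n = 3 each), with 111 CPM in wildtype library 1 and 20.2 CPM or less in the other wildtype libraries.

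STAT6 targets had a median log2 fold change of 0.80 over 6 tested members, 5 above 0 and 1 below, and 0 passed. Il4ra and Socs1 had the smallest p, and over 15 alternative fits the median of the list ran from 0.09 (genes at a mean of 20 CPM or more) to 1.49 (without wildtype library 3). Interferon-induced targets and partners of STAT2 had 14 tested members with a median of 0.17, which was 0.53 without wildtype library 2, 0.05 without deficient library 1 and -0.18 among genes at a mean of 20 CPM or more. Irf9 averaged 43.4 ± 3.09 CPM in deficient and 50.6 ± 12.8 CPM in wildtype libraries. Bst2, which encodes the antiviral protein tetherin, had 2, 1 and 20 reads in deficient libraries 1 to 3, against 75, 60 and 38 reads in wildtype libraries 1 to 3. Zbp1, a nucleic acid sensor gene, averaged 89.2 ± 18.7 CPM in deficient and 50.8 ± 17.7 CPM in wildtype libraries (SD, n = 3 each). Both lay apart between genotypes, Bst2 lower and Zbp1 higher in deficient libraries, with edgeR adjusted p of 0.914 each. Coactivators and dimer partners had 8 tested members and a median of 0.02 (-0.05 without deficient library 3, 0.22 without wildtype library 2), with Crebbp, which encodes the acetyltransferase CBP, at 444 ± 62.4 CPM in deficient and 367 ± 58.8 CPM in wildtype libraries and Nmi, a STAT-interacting protein gene, at 28.8 ± 13.7 CPM in deficient and 45.6 ± 11.1 CPM in wildtype libraries (SD, n = 3 each).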

How the data were processed

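The authors deposited raw counts, whole numbers of reads per Ensembl gene, 1 table per library, with 5 closing rows that name no gene and held 80.0% to 84.4% of listed reads; these rows were left out. Reads aligned to more than 1 place (24.5% to 27.3%) stand in 1 of them. Per the submitters' processing notes, DESeq2, HTSeq 0.6.1, TopHat2 2.1.0 and Trimmomatic 0.33 were used with NCBIM37 and mm9; the sources used here do not give the strand setting. Single reads came from RNA amplified with an Ovation kit, per the labels' protocols.

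Symbols, lengths and sequences came from GENCODE M21 (GRCm38), which named 32919 of 37991 genes, and no coordinates are printed because the builds differ. Libraries were grouped by genotype. The test was edgeR 4.0.16 (R 4.3.3) with filterByExpr, TMM and a quasi-likelihood fit on genotype, adjusted by Benjamini-Hochberg over 11724 genes. The SE is the absolute log2 fold change over the square root of F. Alternatives used DESeq2 1.42.0, limma 3.58.1 (voom), other filters, RLE factors, left-out libraries, a replicate block and summed Stat5 counts. Figures used matplotlib 3.10.9.

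The members and gene lists were chosen with earlier results of these data known. Named were the members, Id2, 18 fixed pathway genes, the 2 members of smallest p per list (none passed), and the 2 genes most alike each member. The fit was first tested on simulated data. At 20 CPM or more it recovered 6.63% of 2-fold and 56.6% of 4-fold changes. Below that level it recovered 0.667% of 2-fold and 5.92% of 4-fold changes, so most simulated 2-fold changes were missed. Marker levels of 2 further cell types are not reported here.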

Additional observations from a re-analysis of the deposited data

How the results depend on the processing

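The 6 members failed the threshold in all alternative fits. Stat6 stayed negative throughout (-1.16 to -0.46 with 1 library left out). Other signs did not hold. Stat2 ran from -0.33 to 0.12 with 1 library left out, Stat3 from -0.33 to 0.24, Stat5a from -0.27 to 0.48, Stat5b from -0.65 to 0.41 and Stat4 from 0.00 to 0.33. Stat3 was -0.18 with limma-voom and quality weights and -0.35 without both libraries numbered 1, where Stat4 was -0.0017 and Stat5a -0.0188. Stat5a and Stat5b summed gave -0.0116. The replicate block gave -0.0151 for Stat3. The labels do not say whether equal numbers pair the libraries. Same-numbered libraries had correlations of deviations of 0.01, -0.02 and 0.04, which cannot settle whether they share a batch.

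Of all tested genes, 2 passed in the analysis as reported, against 64 with DESeq2, 98 without a filter, 8 with quality weights, 1 with limma-voom, 1 at a mean of 20 CPM or more, and 0 with the replicate block, without both libraries numbered 1, and with any 1 library left out (0 to 0). At an unadjusted p under 0.05 edgeR listed 620 genes. Receptors had 2 members past the threshold with DESeq2 and 1 without a filter, STAT4 targets 1 with DESeq2, STAT6 targets 1 with each of these, and inhibitors 1 with quality weights. The difference in Stat5b share stayed between -17.2 and -2.27 percentage points with 1 library left out. With lengths of the longest transcript, mean levels were 11.2 CPM per kb for Stat2, 34.5 for Stat3, 189.8 for Stat4 and 7.89 for Stat5a, and Stat5a then stood above Stat5b and Stat3 above Stat6 in the mean of 6 libraries. Why the counts of calls differ was not tested.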
